A study of Mus musculus with 10 samples.

Results

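The genes described here encode the vascular endothelial growth factor (VEGF) ligands Vegfa, Vegfb, Vegfc and Pgf, the receptor tyrosine kinases Kdr, Flt1 and Flt4, and the co-receptors Nrp1 and Nrp2. They were taken by symbol and make up 9 of the 28454 gene symbols measured. All 9 had at least 1 FPKM in every library, so none was lost to the filter on low values. FPKM divides fragment numbers by transcript length and library total, so levels can be set side by side between genes. The RNA came from CD31-positive cells of B16F10 melanomas, a mouse melanoma line, in adult mice. The 4 wild-type libraries carry the strain label Cdh5-CreERt2, and the 6 Shb-inactivated libraries carry Shbflox/flox/Cdh5-CreERt2, so both groups hold the inducible Cre that the endothelial gene Cdh5 drives. The labels give Tumors as the tissue, while the source field also names lungs. The comparison asks what loss of endothelial Shb, an adaptor protein that binds the activated VEGF receptor 2, does to the transcripts of tumour endothelium.

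VEGF-A binds VEGF receptor 2, the product of Kdr, which carries most of its mitogenic and permeability signal in endothelium. VEGF receptor 1, the product of Flt1, binds VEGF-A, VEGF-B and placental growth factor, and a soluble form of it acts as a decoy. VEGF receptor 3, the product of Flt4, is the main receptor of VEGF-C and marks lymphatic endothelium, but is also present on sprouting blood vessels. Neuropilins bind some VEGF forms and class 3 semaphorins and associate with these receptors. A value per gene cannot separate soluble from membrane forms of Flt1 and Nrp1, or the splice forms of Vegfa, of which the annotation lists 8 coding ones.

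The promoters of the receptor tyrosine kinases are shown because these genes are read together below and were high and low in many of the same libraries. The windows run from 250 bases before to 50 bases after the transcription start, from RefSeq on GRCm38.p6, 5′ to 3′ on the gene's strand. Capitals mark GGAA, the core of ETS factor sites, and TTCC, the same letters on the other strand. The Kdr window is chr5:75978406-75978705 on the minus strand, that of Flt1 is chr5:147725962-147726261 on the minus strand, and that of Flt4 is chr11:49609429-49609728 on the plus strand.
Kdr: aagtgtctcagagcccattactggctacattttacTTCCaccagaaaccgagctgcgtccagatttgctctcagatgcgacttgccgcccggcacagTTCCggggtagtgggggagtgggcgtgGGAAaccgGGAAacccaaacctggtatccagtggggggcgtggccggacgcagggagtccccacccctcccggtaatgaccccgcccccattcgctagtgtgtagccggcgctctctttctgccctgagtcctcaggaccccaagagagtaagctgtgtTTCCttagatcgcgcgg
Flt1: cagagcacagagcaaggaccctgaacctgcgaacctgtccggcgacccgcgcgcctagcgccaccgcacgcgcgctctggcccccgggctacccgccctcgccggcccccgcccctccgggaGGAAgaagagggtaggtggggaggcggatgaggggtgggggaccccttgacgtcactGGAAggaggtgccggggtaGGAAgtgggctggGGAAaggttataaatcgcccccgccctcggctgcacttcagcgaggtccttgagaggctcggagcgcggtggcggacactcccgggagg
Flt4: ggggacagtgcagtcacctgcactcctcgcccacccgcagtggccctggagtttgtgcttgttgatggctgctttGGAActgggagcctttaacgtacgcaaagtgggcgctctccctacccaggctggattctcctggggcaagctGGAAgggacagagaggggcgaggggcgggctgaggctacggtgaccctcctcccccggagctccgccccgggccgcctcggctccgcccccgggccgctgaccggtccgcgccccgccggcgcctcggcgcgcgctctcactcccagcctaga
These windows hold 5, 4 and 2 matches, and their GC content is 60.7%, 70.7% and 70.3%. GGAA on either strand occurs in 96.0% of 32851 RefSeq windows of this length, with a median of 3 matches, so its presence does not set these promoters apart. Windows were found for all 9 genes, and the hypoxia response core ACGTG, searched on both strands, occurred in 1 of their 11 windows. That was the second Vegfa window, chr17:46025114-46025413, and 19.6% of all windows hold it. This window belongs to a start inside the gene, which spans chr17:46016993-46032369 on the minus strand.

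The targeted gene checks the labels. Shb in wild-type replicates 1 to 4 was at 5.44, 3.27, 2.78 and 3.24 FPKM. In the inactivated libraries it ran from 0.37 to 1.44 FPKM with a median of 0.915, so the groups did not overlap (exact permutation p = 0.00476, the smallest that 210 arrangements give, and limma adjusted p = 0.989). The value counts all exons of Shb, also any outside the deleted part. All 18 endothelial markers were above 0 in every library, and the marker of the sort, Pecam1, ran from 569 to 864 FPKM in wild type and from 873 to 1237 in inactivated libraries. Of 5 lymphatic markers measured, the hyaluronan receptor gene Lyve1 ran from 1.47 to 85.8 FPKM, with 50.8 to 85.8 in the 3 myeloid-rich libraries named next and lower levels elsewhere. Mmrn1 ran from 0.90 to 10.9 FPKM and Ccl21a from 0.00 to 2.85, while Prox1 and Reln stayed below 1 FPKM in all 10 libraries. The libraries stand apart in 2 ways. Shb-inactivated replicates 3 and 4 and wild-type replicate 3 were rich in myeloid transcripts, with a sum over 12 macrophage and monocyte markers of 3822 to 6039 FPKM, beside 36.6 to 547 FPKM elsewhere. Shb-inactivated replicates 1 and 2 and wild-type replicate 1 had 12 or 13 of 41 small nucleolar RNA symbols above 0, beside 22 to 33 elsewhere. Each of these kinds holds 1 wild-type and 2 inactivated libraries, and 2 of each group belong to neither.

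The receptors were among the abundant transcripts of these cells. By median over 10 libraries the order was Kdr at 388 FPKM, Flt1 at 336, Nrp1 at 235, Nrp2 at 64.4, Flt4 at 49.6, Pgf at 34.2, Vegfc at 29.7, Vegfa at 10.2 and Vegfb at 3.24 FPKM. Kdr, Flt1 and Nrp1 ranked 200, 205 and 345 by level among the 12805 genes tested. Neighbours in this order were not always apart. Kdr exceeded Flt1 in 3 of 4 wild-type and 3 of 6 inactivated libraries, and Nrp2 exceeded Flt4 in 3 of 4 and 4 of 6. Pgf exceeded Vegfc in 3 of 4 wild-type and 3 of 6 inactivated libraries. Flt1 was above Nrp1, and Nrp1 above Nrp2, in all 10 libraries. Vegfa was above Vegfb in all 10, while Vegfc was above Vegfa in 2 of 4 wild-type and 6 of 6 inactivated libraries.

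**Figure D1:**
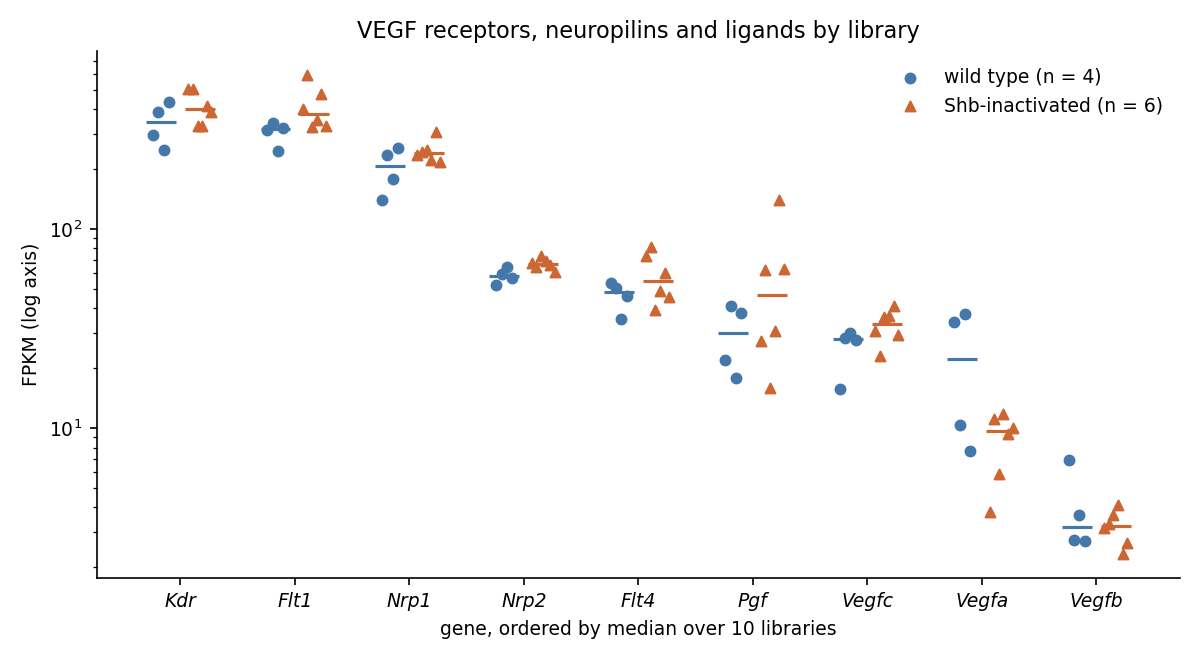
FPKM (log axis) of the 9 genes, ordered by median over 10 libraries, with circles for the 4 wild-type and triangles for the 6 Shb-inactivated libraries and lines at the group medians. The groups overlap for every gene, and Vegfa has 2 wild-type libraries, at 34.1 and 37.6 FPKM, above all others.

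None of the 9 genes passed the test across all genes. Each had a limma p adjusted by Benjamini-Hochberg of 0.989, and 0.0% of the 12805 genes tested passed. The targeted gene Shb ranked 1 by unadjusted limma p (9.74e-05) and had the same adjusted p. Not passing this test thus does not show that a gene was unchanged. Both groups overlapped for all 9, where 0.718% of tested genes had groups that did not overlap. The log2 fold change was above 0 for 7 of 9, with a median of 0.29, beside 51.2% of tested genes and a median of 0.005. Without adjustment, Vegfa alone had a limma p under 0.05, as had 3.45% of tested genes, and Nrp2 alone had an exact permutation p under 0.05, as had 3.87%.

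Kdr, encoding VEGF receptor 2, had levels of 296, 388, 250.3 and 435 FPKM across wild-type replicates 1 to 4. In the inactivated libraries it ran from 327 in replicate 3 to 505 in replicate 2, with a median of 401. The 2 inactivated libraries above every wild-type one were replicates 1 and 2, both with few small nucleolar RNAs. The means were 342 ± 84.2 FPKM (SD, n = 4) and 411 ± 79.3 (SD, n = 6), a 1.20-fold difference within the spread of the libraries. On the log2 scale the difference was 0.28 (SE 0.20, with a 95% interval of -0.16 to 0.71 and an exact permutation p of 0.233). Without the 3 libraries with few small nucleolar RNAs the means were 358 and 365 FPKM, and without these and the myeloid-rich ones they were 412 and 401 FPKM. Without wild-type replicate 3 the log2 difference was 0.14, and after adjustment for the melanoma marker score 0.09. In bulk RNA, a change in the share of endothelial cells and a change in transcript per cell cannot be told apart.

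Flt1, encoding VEGF receptor 1, had levels of 315, 341, 246 and 321 FPKM across wild-type replicates 1 to 4. The inactivated libraries ran from 324 in replicate 3 to 594 in replicate 2, with a median of 376. Of these, 4 of 6 lay above the highest wild-type library, and the lowest lay above 3 of the 4 wild-type values. The means of 306 ± 41.7 FPKM (SD, n = 4) and 413 ± 105.5 (SD, n = 6) gave a 1.35-fold difference. Its log2 fold change of 0.41 (SE 0.19, 95% interval -0.01 to 0.83) had an exact permutation p of 0.0571. Without the 3 libraries with few small nucleolar RNAs the means were 303 and 370.3 FPKM.

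Flt4, encoding VEGF receptor 3, had levels of 53.3, 50.3, 35.2 and 46.1 FPKM across wild-type replicates 1 to 4. It ran from 39.2 in replicate 3 to 81.5 in replicate 2 of the inactivated libraries, with a median of 54.6. As for Kdr and Flt1, the lowest library of each group was the myeloid-rich replicate 3 of that group, and the highest inactivated library was replicate 2. The means were 46.2 ± 7.91 FPKM (SD, n = 4) and 58.1 ± 16.6 (SD, n = 6), with a log2 fold change of 0.29 (SE 0.21) and an exact permutation p of 0.233. Leaving out wild-type replicate 3 gave a difference of 0.17, and leaving out Shb-inactivated replicate 2 gave 0.19. The part of lymphatic cells in the Flt4 values was not tested.

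The summed level of the receptor tyrosine kinases was 694 ± 124 FPKM in wild type (SD, n = 4) and 882 ± 188 FPKM in the inactivated group (SD, n = 6). The shares of the receptors in that sum differed by less than their SD. Kdr gave 48.9% ± 4.14 (SD, n = 4) and 46.9% ± 3.64 (SD, n = 6) of it. Flt1 gave 44.4% ± 3.28 and 46.6% ± 3.73, and Flt4 gave 6.71% ± 0.95 and 6.51% ± 0.65.

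Nrp1, encoding neuropilin 1, had levels of 139.8, 234, 178 and 253 FPKM across wild-type replicates 1 to 4. The inactivated libraries ran from 217 in replicate 6 to 307 in replicate 5, with a median of 239. Wild-type replicates 1 and 3 lay below every inactivated library, and wild-type replicate 4 lay above 5 of the 6. The means were 201 ± 52.0 FPKM (SD, n = 4) and 245 ± 32.5 (SD, n = 6), with a log2 fold change of 0.31 (SE 0.18) and an exact permutation p of 0.129. Without wild-type replicate 1, the library richest in melanoma markers, it was 0.15, and after adjustment for the melanoma marker score 0.046.

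Nrp2, encoding neuropilin 2, varied least of the 9 genes, with a coefficient of variation of 9.68% over 10 libraries. Wild-type replicates 1 to 4 had 52.6, 59.2, 64.4 and 57.0 FPKM, with 60.7 to 73.2 FPKM in the inactivated libraries with a median of 66.9. The groups overlapped through wild-type replicate 3 at the top of its group and inactivated replicates 2 and 6 at the bottom of theirs. The means were 58.3 ± 4.91 FPKM (SD, n = 4) and 66.8 ± 4.27 (SD, n = 6), a 1.15-fold difference. The log2 difference of 0.20 (SE 0.09, 95% interval -0.01 to 0.40) gave 0.019 as the exact permutation p and 0.989 as the limma p after adjustment over all genes. Without wild-type replicate 1 the exact permutation p was 0.0595, and an antisense gene, Gm29083, lies within an intron of Nrp2 at a mean of 0.66 FPKM.

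Because each kind of library held both groups, the members were also read within kinds, a choice made after their values were seen. Nrp2 and Vegfc were higher in every inactivated than in every wild-type library within each of the 3 kinds, and 4.91% of tested genes were. No member was lower in that way, where 4.97% of tested genes were. Nrp2 was 64.4 FPKM in wild type beside 73.2 and 69.1 among the myeloid-rich libraries, and 52.6 beside 67.6 and 64.4 among those with few small nucleolar RNAs. In the remaining libraries the values were 59.2 and 57.0 beside 66.1 and 60.7 FPKM. Vegfc was 30.01 beside 36.3 and 36.8 FPKM, 15.7 beside 30.7 and 23.0, and 28.5 and 27.6 beside 41.2 and 29.3. Kdr, Flt1, Flt4 and Nrp1 were higher in this sense in 2 of 3 kinds and overlapped in the third, made up of the libraries in neither kind. Those 2 kinds hold only 1 wild-type library each. The share of all tested genes higher in 2 of 3 kinds was not computed, so nothing is read from this count.

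Ratios within a library do not depend on its scaling, and none of the 10 pairs among receptors and neuropilins passed the test between the groups. All 10 had a Benjamini-Hochberg adjusted exact permutation p of 0.938. Kdr over Flt1 was 0.939, 1.14, 1.02 and 1.36 in wild-type replicates 1 to 4 and 0.85 to 1.25 in the inactivated libraries, with medians of 1.08 and 0.974. It lay above 1 in 6 of 10 libraries. The difference in log2 ratio was -0.13 (SE 0.15, exact permutation p = 0.39). Flt1 over Flt4 was 5.92 to 6.98 in wild type and 5.50 to 8.26 in the inactivated group, where 5 of 6 libraries lay above all wild-type ones and replicate 1 below them. That difference was 0.11 (SE 0.10, exact permutation p = 0.357). Without Shb-inactivated replicate 1 it was 0.19, and without wild-type replicate 1 it was 0.06. Leaving out the only inactivated library below wild type separates the groups by construction. The unadjusted exact permutation p of 0.00794, the smallest possible there, is therefore not read as a result.

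The other ratios overlapped as widely. Kdr over Flt4 was 5.56 to 9.44 in wild type and 6.20 to 8.49 in the inactivated group, and Kdr over Nrp1 was 1.40 to 2.12 and 1.32 to 2.13. Nrp1 over Nrp2 was 2.66 to 4.45 and 3.20 to 4.64. Flt1 over Nrp2 had the widest difference of the 10, at 0.21 on the log2 scale (SE 0.22, exact permutation p = 0.405), with 3.81 to 6.00 in wild type and 4.42 to 9.24 in the inactivated group. Leaving out wild-type replicate 3 gave 0.06, and leaving out Shb-inactivated replicate 2 gave 0.09.

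**Figure D2:**
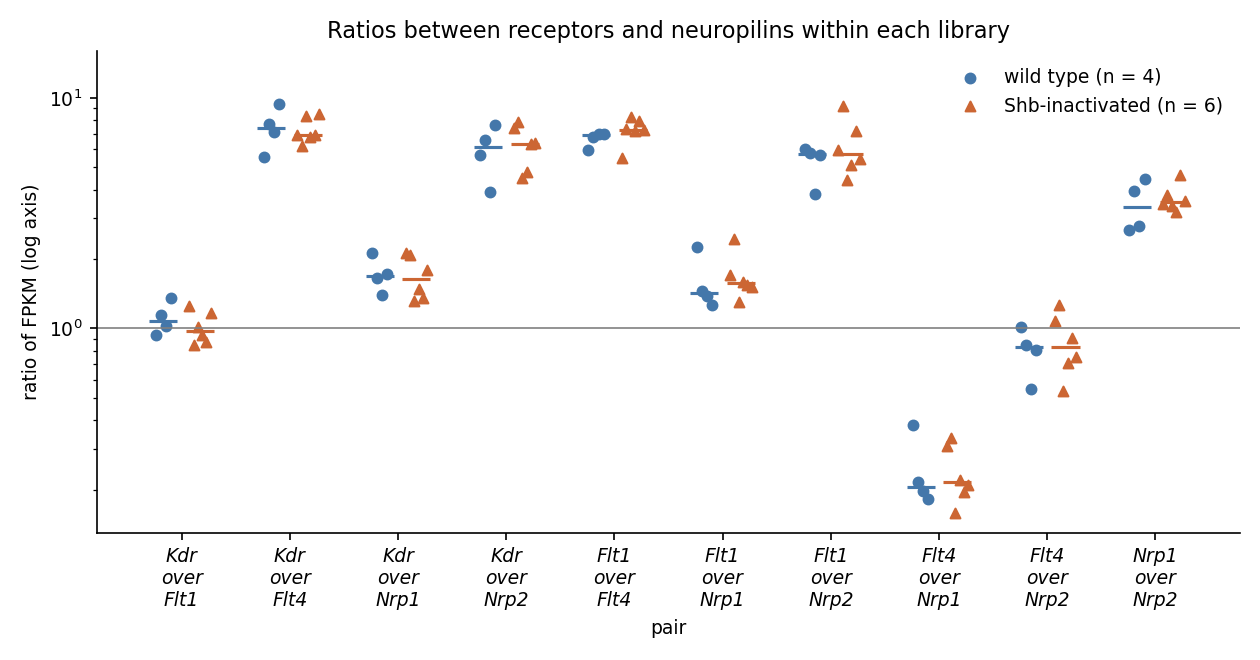
Ratio of FPKM within each library (log axis) for the 10 pairs of receptors and neuropilins, with circles for the 4 wild-type and triangles for the 6 Shb-inactivated libraries, lines at the group medians and a grey line at a ratio of 1. Both groups overlap for every pair, and Kdr over Flt1 lies on both sides of 1.

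Vegfa encodes VEGF-A, which many cells make and which hypoxia induces. Wild-type replicates 1 to 4 had 34.1, 10.4, 37.6 and 7.66 FPKM. The inactivated libraries ran from 3.81 in replicate 1 to 11.8 in replicate 4, with a median of 9.68. The high values were thus 2 wild-type libraries, and wild-type replicates 2 and 4 lay within the range of the inactivated group. The means were 22.4 ± 15.6 FPKM (SD, n = 4) and 8.66 ± 3.15 (SD, n = 6), 2.59-fold higher in wild type. The log2 difference of -1.06 (SE 0.46, 95% interval -2.09 to -0.04) came with an exact permutation p of 0.0905 and a limma p of 0.989 adjusted over all genes. In the 4 libraries in neither kind the direction turned, with means of 9.05 and 9.68 FPKM.

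Wild-type replicates 1 and 3, with the most Vegfa, each led a different marker list of other cells. Wild-type replicate 1, with 34.1 FPKM, had the highest sum over 10 melanoma markers, 1175 FPKM, and wild-type replicate 3, with 37.6 FPKM, the highest sum over 12 macrophage and monocyte markers, 6039 FPKM. All 10 tested melanoma markers had a fold change below 0, as had all 12 of the macrophage list. Among all tested genes 51.2% lay above 0. Without adjustment 3 of the melanoma and 0 of the macrophage markers had a limma p under 0.05, beside 3.45% of tested genes. Markers of 1 cell type rise and fall together, so they are not separate observations. Some macrophage markers had a higher mean FPKM in the inactivated group. The melanoma sums ran from 91.9 to 1175 FPKM in wild type and from 12.8 to 362 in the inactivated group, the macrophage sums from 36.6 to 6039 and from 38.4 to 4469. No marker of either list was at 0 in any library. Shb-inactivated replicate 4 had 362 and 3822 FPKM of these sums and 11.8 FPKM of Vegfa. Shb-inactivated replicate 3 had a macrophage sum of 4469 FPKM and 5.90 FPKM of Vegfa. The macrophage sum was also higher in wild-type replicate 2, with 10.4 FPKM of Vegfa, than in wild-type replicate 1, at 547 beside 230 FPKM. Adjusted for the mean melanoma marker level, the log2 fold change of Vegfa was -0.42, and with the macrophage score it was -0.98. It was -0.38 with array quality weights, which gave wild-type replicate 1 the lowest weight. The part of melanoma cells and macrophages in the Vegfa values was not tested.

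Pgf encodes placental growth factor, a ligand of VEGF receptor 1. The wild-type values, replicates 1 to 4, were 22.1, 41.0, 17.9 and 37.7 FPKM. In the inactivated libraries it ran from 15.9 in replicate 3 to 139.9 in replicate 5, with a median of 46.5. Both groups had their lowest value in the myeloid-rich replicate 3, and 3 of 6 inactivated libraries lay above every wild-type one. The means were 29.7 ± 11.4 FPKM (SD, n = 4) and 56.4 ± 45.2 (SD, n = 6), with a log2 fold change of 0.64 (SE 0.53) and an exact permutation p of 0.319. Without Shb-inactivated replicate 5 the means were 29.7 and 39.7 FPKM. That library also had the highest sum over 10 pericyte and smooth muscle markers, 719.7 FPKM, beside 112 to 342 in wild type and 139 to 341 in the other inactivated libraries. All 10 of these markers had a fold change above 0, beside 51.2% of tested genes, and their part in the Pgf values was not tested. The pericyte list was not alone in this, as Shb-inactivated replicate 5 also had the highest sum over 18 endothelial markers, 6969 FPKM. The same held for the VEGF-induced and hypoxia-induced gene lists described below, at 5285 and 1963 FPKM.

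**Figure D3:**
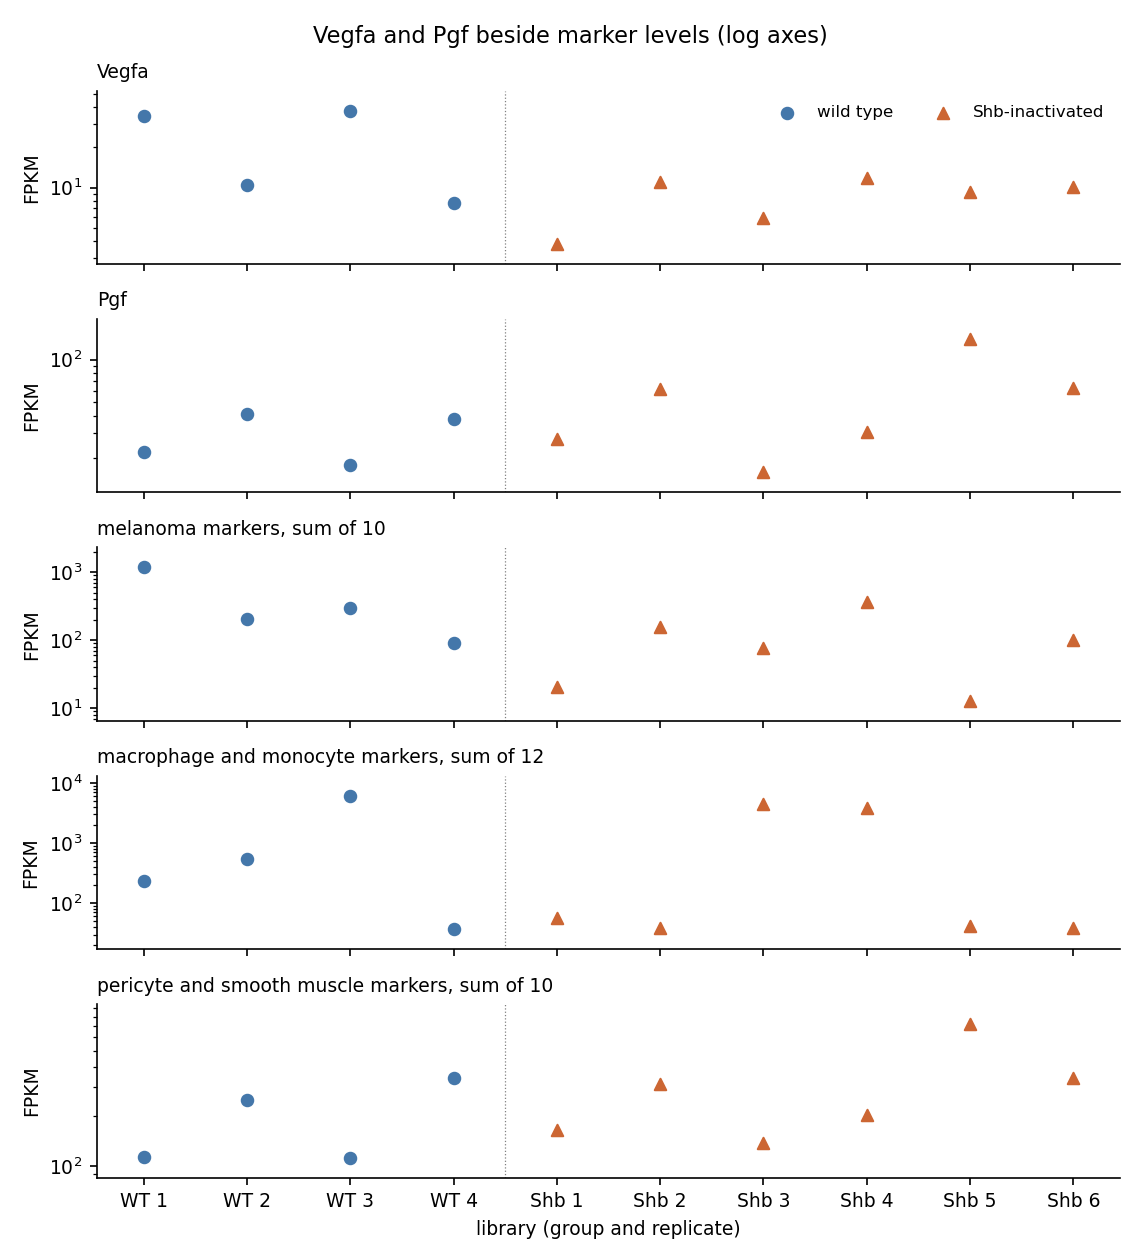
FPKM (log axes) of Vegfa and Pgf and the summed FPKM of melanoma, macrophage and monocyte, and pericyte and smooth muscle markers in each library, with circles for wild type (WT) and triangles for Shb-inactivated (Shb) replicates. Vegfa is highest in wild-type replicates 1 and 3, which have the highest melanoma and macrophage sums, 1175 and 6039 FPKM, and Pgf and the pericyte sum are both highest in Shb-inactivated replicate 5. The sum over 18 endothelial markers, not drawn, was also highest in that library.

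Vegfc encodes VEGF-C, the ligand of VEGF receptor 3. Wild-type replicates 1 to 4 had 15.7, 28.5, 30.01 and 27.6 FPKM, and 23.0 to 41.2 FPKM in the inactivated libraries, with a median of 33.5. Wild-type replicate 1 was the lowest of all 10, and 4 of 6 inactivated libraries lay above every wild-type one. The means were 25.4 ± 6.58 FPKM (SD, n = 4) and 32.9 ± 6.49 (SD, n = 6), with a log2 fold change of 0.37 (SE 0.21) and an exact permutation p of 0.105. Without wild-type replicate 1 it was 0.17 (exact permutation p = 0.333), and after adjustment for the melanoma marker score 0.13.

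Vegfb, encoding VEGF-B, a ligand of VEGF receptor 1, was the lowest of the 9 genes. The wild-type libraries had 6.92, 2.75, 3.66 and 2.71 FPKM in order of replicate, and the inactivated libraries 2.34 to 4.10 FPKM. Wild-type replicate 1 was the highest of all 10, and the other wild-type libraries lay within the range of the inactivated group. The log2 fold change was -0.19 (SE 0.22, exact permutation p = 0.49), and without wild-type replicate 1 it was 0.05. The related ligand Vegfd, listed under its older symbol Figf, was 0.02 to 0.17 FPKM and fell below the filter.

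The 4 ligands together gave 81.6 ± 5.79 FPKM in wild type (SD, n = 4) and 101 ± 48.1 FPKM in the inactivated group (SD, n = 6). Vegfa made up 43.3%, 12.6%, 42.1% and 10.1% of that sum in wild-type replicates 1 to 4 and 4.83% to 14.2% in the inactivated libraries. Pgf made up 72.6% in Shb-inactivated replicate 5. Of 6 ligand ratios none passed. Vegfa over Vegfc was 2.17, 0.366, 1.25 and 0.277 in wild type and 0.124 to 0.482 in the inactivated group. That difference was -1.44 on the log2 scale (SE 0.72, exact permutation p = 0.0571, adjusted 0.19 over 6 pairs). Vegfa over Vegfb and Vegfa over Pgf also had an adjusted exact permutation p of 0.19, with differences of -0.87 and -1.71. The 3 ratios without Vegfa had adjusted exact permutation p-values of 0.336 to 0.681.

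The receptors and neuropilins were also read against the level of endothelial markers in each library, as log2(FPKM + 1) minus the mean of 18 such markers. These markers are transcripts too, so cell share and transcript per cell cannot be told apart here either. The fold change of all 18 markers was above 0, beside 51.2% of tested genes. Their median was 0.32, near that of the receptors. Cdh5, encoding VE-cadherin, was 402 ± 26.3 FPKM (SD, n = 4) and 523 ± 83.9 (SD, n = 6). Relative to the markers the differences shrank to -0.04 for Kdr (SE 0.15), 0.10 for Flt1 (SE 0.15), -0.02 for Flt4 (SE 0.19) and -0.12 for Nrp2 (SE 0.14), and that of Nrp1 was below 0.01 (SE 0.14). Their unadjusted exact permutation p-values were 0.471 to 1. With the mean log2 level of these markers as a covariate in limma instead, Kdr was -0.09, Flt1 0.10, Flt4 -0.04 and Nrp1 0.05, but Nrp2 was 0.21, so the direction for Nrp2 depended on the form of the adjustment. The signs of these values depended on which library was left out for Kdr, Flt1, Flt4 and Nrp1.

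Of the ligands, Vegfa had a difference of -1.38 relative to the endothelial markers (SE 0.67), with an unadjusted exact permutation p of 0.0429, the one such value under 0.05 among 9 genes. Without wild-type replicate 1 it was -1.004 with an exact permutation p of 0.131, and it was also above 0.05 without wild-type replicate 3 or any 1 of Shb-inactivated replicates 1, 2, 3, 5 and 6. Vegfb differed by -0.50 (exact permutation p = 0.138), Vegfc by 0.06 (p = 0.814) and Pgf by 0.33 (p = 0.538).

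**Figure D4:**
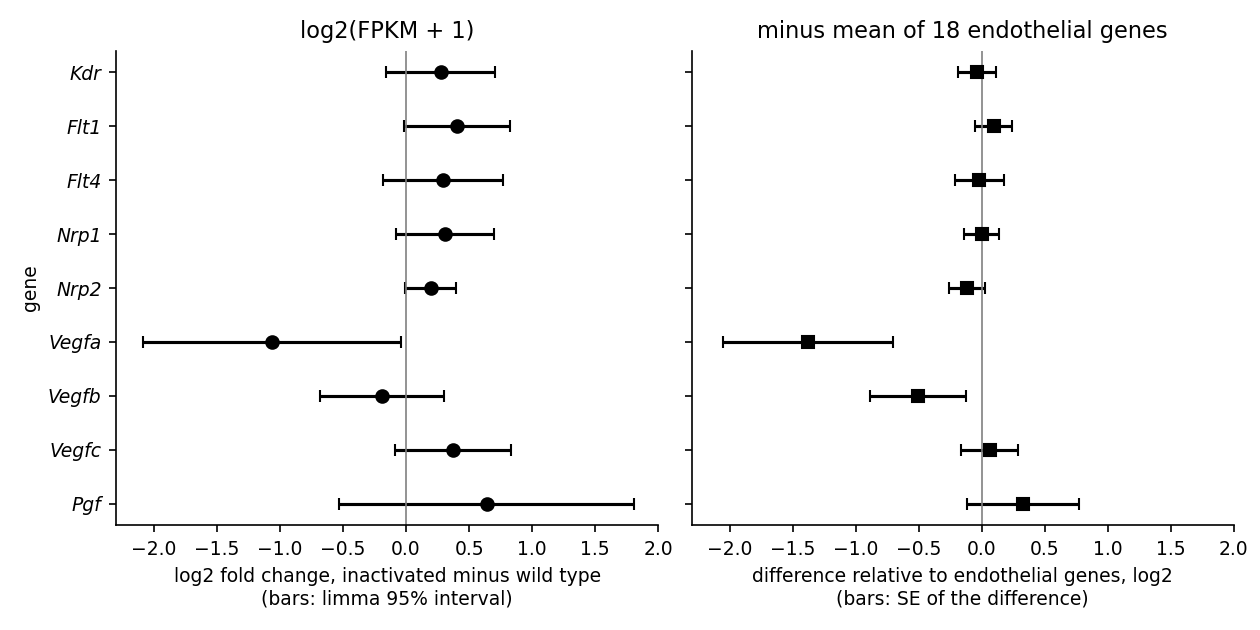
Differences of Shb-inactivated minus wild-type libraries for the 9 genes, on the left as limma log2 fold changes with 95% intervals and on the right after subtracting the mean of 18 endothelial markers, with bars for the SE. The 5 receptors and neuropilins lie at 0.20 to 0.41 on the left and between -0.12 and 0.10 on the right, and Vegfa is the one gene below -1 on both sides.

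Genes that act with these receptors were read from lists chosen by known function. Of 38 genes of VEGF receptor signalling, which relay the signal from the receptors to kinases and the cytoskeleton, none passed the limma test. Of these, 25 had a fold change above 0 and the median was 0.15. Over all tested genes 51.2% were above 0, with a median of 0.005. Without adjustment 5 of 38 had a limma p under 0.05, beside 3.45% of tested genes, and 1 of these is Shb itself. The 2 most abundant members, the small GTPases Cdc42 and Rac1, were 394 ± 133 and 441 ± 113 FPKM, and 313 ± 49.3 and 359 ± 26.1 FPKM (SD, n = 4 and 6). The other 4 with a limma p under 0.05 are named after their values were seen: the adaptors Nck2 and Gab1, the kinase Fyn and the heat shock protein gene Hspb1. Nck2 was 17.8 to 21.4 FPKM in wild type and 22.6 to 28.6 in the inactivated libraries (exact permutation p = 0.00952). Its groups did not overlap, as was so for 0.718% of tested genes.

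Of 17 tested genes of receptor trafficking and phosphatases, 13 lay above 0, beside 51.2% of all tested genes. Their list had a median log2 fold change of 0.11. The most abundant, the integrin gene Itgb1 and the recycling GTPase Rab11a, had means of 520.0 and 640 FPKM, and 230.3 and 282 FPKM. Without adjustment 2 of 17 had a limma p under 0.05, Ptprb among them, beside 3.45% of tested genes. Ptprb, encoding the endothelial phosphatase VE-PTP, was 85.8 to 96.4 FPKM in wild type and 97.1 to 128 in the inactivated libraries (exact permutation p = 0.0143). Its groups did not overlap, as was so for 0.718% of tested genes. Ptprb is named after its values were seen, and its adjusted limma p was 0.989.

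Of 21 tested genes that VEGF-A induces in endothelium, 14 lay above 0 and the median log2 fold change was 0.30. Over all tested genes 51.2% lay above 0, with a median of 0.005. The 18 endothelial markers had a median of 0.32, and the gene lists were not read against those markers. Esm1, which encodes the proteoglycan endocan, was 392 to 1157 FPKM in wild type and 628 to 2449 in the inactivated group. Apln, encoding the ligand apelin, was 222 to 632 and 348 to 893 FPKM. Among 8 tested semaphorin 3 ligands and plexin partners of the neuropilins, 6 were above 0, with a median of 0.20. Sema3f, a ligand of neuropilin 2, was 189 to 251 FPKM in wild type and 203 to 417 in the inactivated group, and Plxnd1, a plexin receptor, was 129 to 189 and 114 to 294. Of 14 hypoxia-induced genes 8 were above 0, with a median of 0.02. The glycolytic genes Aldoa and Ldha had means of 449 and 445, and 445 and 425 FPKM. No gene of these lists passed the limma test after adjustment.

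The genes whose log2(FPKM + 1) values followed each member most closely over the 10 libraries were taken by Pearson's r among 6723 genes with a mean of at least 10 FPKM. They describe these libraries, which differ in cell content and small RNA, and the 3 highest of so many values are high by selection. For Kdr they were Tmem255a (r = 0.968, Spearman's rho = 0.927), Sema6d and Ctnnb1 (both r = 0.965, rho = 0.976). For Flt1 they were Ptpn9 (r = 0.962, rho = 0.903), Pde2a and Golga3, and for Flt4 they were Sema3f (r = 0.966, rho = 0.77), Spry4 and Pald1. Gabarapl2 led for Nrp1 (r = 0.99, rho = 0.927), before Pde6d and Arl6, and Pcyt1a led for Nrp2 (r = 0.961, rho = 0.927), before Nck2 (r = 0.938, rho = 0.939). For the ligands only the leading gene is given, which was Paf1 for Vegfa, Gaa for Vegfb, Lysmd2 for Vegfc and Cgnl1 for Pgf, with r of 0.959, 0.979, 0.972 and 0.947.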

How the data were processed

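Total RNA of CD31-positive cells, sorted with magnetic beads after CD11b depletion, was sequenced in 4 wild-type and 6 Shb-inactivated libraries with a stranded total RNA kit, per the labels' protocols. The authors deposited 1 FPKM value per symbol and library, written with a decimal comma, per the file headers. Alignment tools and build in the submitters' processing notes are GRCm38, TopHat2 2.1.1 and Cufflinks 2.2.1; their annotation, and whether strand was used, is not given in the sources used here. Read totals cannot be recovered from FPKM, so the depth is unknown and no counting interval is given.

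From these files log2(FPKM + 1) was computed, which understates changes of low genes. The 12805 genes that reached 1 FPKM in 4 or more libraries were fitted with limma 3.58.1 (R 4.3.3), using a mean-variance trend and two-sided tests, with p-values adjusted by Benjamini-Hochberg with a threshold of 0.05. The limma step was tested on simulated data. Single genes and ratios were tested by two-sided exact permutation over 210 arrangements of the libraries. The design text counts 4 and 6 mice, so p-values reflect the spread between libraries. Fold changes are inactivated minus wild type. Gene positions and transcripts came from GENCODE vM21, promoters from RefSeq, and plots were drawn with matplotlib 3.10.9.

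The members, lists and tests were chosen with earlier results of these data known. Named are the 9 members, Shb, the 2 most abundant genes of each list without a gene past the threshold, and of the genes most like each member the 3 highest (fewer are printed for Nrp2 and the ligands). Nck2, Gab1, Fyn, Hspb1, Ptprb, Prox1, Reln, Ccl21a and Cdh5 fall outside that rule and were chosen after their values were seen. Markers Slc45a2 and Pdpn were not matched by symbol. Alternatives changed the pseudocount, filter, scaling, weights, covariates, block and libraries; leaving out the 3 myeloid-rich libraries, the 3 with few small nucleolar RNAs, or both was added after seeing the data.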

Additional observations from a re-analysis of the deposited data

Results flagged for a closer look

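In groups of 4 or 6 libraries, 7 of 50 sets of values had 1 library far from the others by Dixon's criterion. Chance alone gives about 1 in 20 for independent sets. These sets share genes and libraries, so no excess can be read from the count. Nrp1 was 307 FPKM in Shb-inactivated replicate 5, far above the rest of its group. Vegfc was 15.7 FPKM in wild-type replicate 1, far below the other wild-type libraries. The log2 ratio of Flt1 over Flt4 was lowest at 2.54 in wild-type replicate 1 and at 2.44 in Shb-inactivated replicate 1, both among the libraries with few small nucleolar RNAs. The log2 ratio of Flt1 over Nrp2 was lowest at 1.92 in wild-type replicate 3, which is rich in myeloid transcripts, and that of Vegfc over Pgf was highest there at 0.72. The log2 ratio of Vegfb over Vegfc was highest at -1.08 in wild-type replicate 1.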

How the results depend on the processing

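No gene passed the limma threshold across all genes, except that 6 genes, none a member, passed with both kinds of library left out, 2 libraries a group. Without adjustment, 442 genes had a limma p under 0.05 as reported. Members with an exact permutation p under 0.05 numbered 1 of 9 (Nrp2) as reported, beside 3.87% of tested genes, and 0 to 3 with 1 library left out. The count was 0 without the 3 myeloid-rich libraries, 0 without the 3 with few small nucleolar RNAs and 0 without both, where the smallest p possible was 0.0286, 0.0286 and 0.167. Without wild-type replicate 1 it was 0. Without wild-type replicate 4 it was 3, with Nrp1 at 0.0357, Vegfa at 0.0357 and Nrp2 at 0.0476 (exact permutation p). Across all tested genes, 669 of 12805 had an unadjusted limma p under 0.05 in that setting. The share by exact permutation was not computed with libraries left out, so nothing is read from these counts. Relative to the endothelial markers the count of members was 1 (Vegfa) as reported, 0 to 1 with 1 library left out, 0 without the 3 libraries with few small nucleolar RNAs, 0 without both kinds and 0 with the replicate block. Vegfb alone passed without the myeloid-rich libraries (-0.752, exact permutation p = 0.0286).

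No receptor or ligand ratio passed under any alternative run after adjustment over its pairs. Flt1, Nrp1, Nrp2 and Vegfc kept a fold change above 0 throughout, and no change of direction below concerns a value past an adjusted threshold; the cause was not tested. With the melanoma score as a covariate the log2 fold changes of Kdr, Nrp1, Vegfa, Vegfc and Pgf were 0.091, 0.046, -0.415, 0.13 and 0.239, and with array weights those of Kdr, Nrp1 and Vegfa were 0.036, 0.047 and -0.376. With 1 library left out, Kdr ran from 0.136 to 0.4, Flt4 from 0.171 to 0.395, Nrp1 from 0.149 to 0.434, Vegfc from 0.167 to 0.469, Vegfa from -1.446 to -0.727 and Pgf from 0.312 to 0.925; Flt1 over Flt4 ran from 0.059 to 0.189, Flt1 over Nrp2 from 0.061 to 0.3, Kdr over Flt1 from -0.209 to -0.033 and Nrp1 over Nrp2 from 0.001 to 0.248. With the pan-endothelial score as a covariate the log2 fold changes of Kdr, Flt4, Vegfb and Pgf were -0.088, -0.041, 0.185 and -0.317. Vegfb was 0.053 with array weights, 0.161 with the melanoma score, 0.04 without the libraries with few small nucleolar RNAs and -0.313 to 0.052 with 1 library left out, and was not among the genes with a mean of at least 5 FPKM. Without both kinds Kdr was -0.035 and Vegfa 0.101. With 1 library left out the log2 differences ran from -0.15 to 0.102 for Kdr over Flt4, -0.13 to 0.067 for Kdr over Nrp1, -0.108 to 0.214 for Kdr over Nrp2, -0.018 to 0.276 for Flt1 over Nrp1, -0.136 to 0.217 for Flt4 over Nrp1, -0.073 to 0.226 for Flt4 over Nrp2 and -0.583 to 0.031 for Vegfc over Pgf. Relative to the endothelial markers they ran from -0.17 to 0.044 for Kdr, 0.0 to 0.193 for Flt1, -0.134 to 0.135 for Flt4, -0.082 to 0.077 for Nrp1 and -0.065 to 0.198 for Vegfc.

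Without the libraries with few small nucleolar RNAs, Kdr over Nrp2 was -0.098 and Flt4 over Nrp2 -0.016, and relative to the endothelial markers Nrp1 was 0.021 and Nrp2 0.015. Without the myeloid-rich libraries Flt4 over Nrp1 was 0.054, and relative to the markers Flt1 was -0.003 and Vegfc -0.056. Without both kinds, Kdr over Nrp2 was -0.158, Flt4 over Nrp1 0.04, Flt4 over Nrp2 -0.002, Nrp1 over Nrp2 -0.041 and Vegfa over Vegfb 0.194, and Flt1 relative to the markers -0.002. A pseudocount of 5 gave 0.006 for Nrp1 relative to the markers.

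The labels do not say whether replicate numbers pair the libraries. Same-numbered libraries correlated at 0.436, -0.319, 0.707 and -0.546 in their deviations from the group means, and none correlated best with its own number. The libraries numbered 1 and those numbered 3 also share a kind, so these values neither show nor exclude a pairing. With the replicate block, over replicates 1 to 4, 0 genes passed and the log2 fold changes were 0.281 for Kdr, 0.418 for Flt1, 0.342 for Flt4, 0.233 for Nrp2, -1.175 for Vegfa and 0.108 for Pgf. The block gave 0.011 for Kdr over Nrp1, 0.072 for Flt4 over Nrp1 and 0.216 for Vegfc over Pgf, and relative to the markers 0.009 for Kdr, 0.07 for Flt4 and -0.165 for Pgf. Depth is unknown, so what it limits cannot be stated.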
